A study of Arabidopsis thaliana with 236 samples.

Results

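The HRS1/HHO family of Arabidopsis thaliana, of which some members are also called NIGT1, consists of GARP-type transcription factors that repress their target genes. Its 7 members were chosen by locus: HRS1 (AT1G13300), HHO1 (AT3G25790), HHO2 (AT1G68670), HHO3 (AT1G25550), EFM, also called HHO4 (AT2G03500), HHO5 (AT4G37180) and HHO6 (AT1G49560). They are 7 of the 27143 loci measured, and all 7 were on the array. Each had 1 row in the deposited table except HHO5, whose 2 rows were averaged.

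Nitrate supply activates NIN-like proteins (NLPs), which bind the promoters of HRS1, HHO1, HHO2 and HHO3 and switch them on. The repressors made from these genes in turn restrain high-affinity nitrate transporter genes such as NRT2.1 and NRT2.4, and they also act on SPX genes, which tie nitrate supply to the phosphate starvation response. HRS1 and HHO1 are known for restraining primary root growth when phosphate is short and nitrate is present, and EFM is known as a repressor of flowering in leaves.

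Seedlings of accession Col-0 carrying a green fluorescent protein marker grew for 9 days on 0.1 mM KNO3 (the labels give their age as 12 days), and their treatment began at dawn. The nitrogen groups received 5 mM KNO3, the rhizobium groups fresh 0.1 mM KNO3 with Sinorhizobium meliloti at an OD600 of 0.8, and the standard groups fresh 0.1 mM KNO3 alone. Protoplasts made from the roots were collected by fluorescence-activated sorting. The 2 cell types are the pericycle, the layer inside the endodermis that gives rise to lateral roots, and the cortex, which lies between the endodermis and the epidermis. RNA was measured on 1-colour NimbleGen arrays before treatment (0 h) and at 1, 2, 4, 6, 8, 10, 12, 14, 16, 20, 24, 36 and 48 h. Pericycle and cortex gave 41 and 32 arrays with nitrogen, 42 and 38 with rhizobium, 38 and 37 on standard medium, and 5 and 3 at 0 h. The 80 combinations of cell type, treatment and hour held 2 to 5 arrays each, and 2 standard pericycle arrays of 16 h that were nearly identical were averaged and counted as 1. The labels do not name the marker lines. Cell types and hours are those of the sample titles, because the series record names epidermal cells in place of the pericycle in one sentence and lists 7 h but neither 8 nor 36 h.

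All levels below are deposited log2 intensities, and every difference is a difference of log2 values. Unless other hours are named, a difference is the mean of the same-hour differences over the 13 hours from 1 to 48 h. It is followed by its standard error and limma's p adjusted over all loci. A gene is said to have risen or fallen only where that p was below 0.05. The labels do not say whether the arrays of a group are independent plants, and the p-values rest on array-to-array spread alone, part of which may be technical. The comparisons of nitrogen and of rhizobium with standard share the standard arrays. Cells of a sorted sample are pooled, so fewer cells of a type and less RNA per cell cannot be told apart.

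The cell type labels were set against marker genes. Markers of pericycle and stele (7 genes) averaged 10.10, 10.15 and 10.02 on pericycle arrays with nitrogen, rhizobium and standard medium, against 9.29, 9.20 and 8.73 on the cortex arrays. Cortex markers (5 genes) averaged 10.81, 10.21 and 9.44 on the same 3 sets of cortex arrays, against 9.62, 9.69 and 9.41 on pericycle arrays, so on standard medium they did not separate the cell types. Endodermis markers (10 genes) were at 9.17, 9.52 and 9.10 on pericycle arrays, against 7.35, 7.16 and 7.06 on cortex arrays, and epidermis and root hair markers (9 genes) at 8.72, 8.81 and 8.19, against 7.02, 7.05 and 6.89. Phloem markers (3 genes) averaged 6.16, 6.45 and 6.45 on pericycle arrays, against 5.48, 5.34 and 5.33 on cortex arrays. Root cap markers (3 genes) averaged 7.27, 7.71 and 7.53, against 6.91, 6.55 and 6.12. Xylem markers (4 genes) averaged 6.60, 6.47 and 6.52 on pericycle arrays, against 6.88, 6.79 and 6.86 on cortex arrays, where they were the higher in each treatment. Heat shock genes (9 genes) averaged 10.17 ± 0.96 with nitrogen and 9.83 ± 1.10 with rhizobium in cortex, against 13.92 ± 1.11 on the standard cortex arrays (SD over arrays). In pericycle the same 3 means were 10.00, 10.16 and 10.53. Every comparison that uses the standard cortex arrays therefore sets arrays with low heat shock RNA against arrays with high heat shock RNA, and the comparison of nitrogen with rhizobium avoids them.

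HHO1 had the largest nitrogen difference of the 7 genes in pericycle. Over 1 to 48 h its mean in pericycle was 12.04 with nitrogen, against 8.92 on standard medium, a difference of 3.12 ± 0.37 (adjusted p = 1.21e-11). The nitrogen mean was the higher of the 2 at all 13 hours. In cortex the means were 12.79 with nitrogen and 11.39 on standard medium, and HHO1 rose by 1.39 ± 0.39 (adjusted p = 0.00269), with 11 of 13 hours in that direction (1.32, adjusted p = 0.054 without replicate 1). Against rhizobium it was higher with nitrogen by 2.63 ± 0.36 (adjusted p = 9.32e-09) in pericycle and by 2.30 ± 0.39 (adjusted p = 1.48e-06) in cortex.

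In pericycle the separation of HHO1 grew with time, and from 20 h on it was close to complete. At 20 to 48 h the lowest, median and highest pericycle arrays were at 10.67, 13.01 and 13.74 with nitrogen (12 arrays), at 5.66, 7.27 and 10.76 with rhizobium (12 arrays) and at 5.06, 6.16 and 11.69 on standard medium (11 arrays). Of the 12 nitrogen arrays, 11 lay above every rhizobium array and 10 above every standard array. The nitrogen mean exceeded the standard mean by 5.73 ± 0.67 (adjusted p = 4.11e-11) and the rhizobium mean by 5.16 ± 0.66 (adjusted p = 2.61e-09).

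In cortex the late HHO1 values were at 12.63, 13.16 and 13.44 with nitrogen (11 arrays), 4.74, 5.80 and 12.17 with rhizobium (12 arrays) and 7.50, 10.70 and 12.42 on standard medium (11 arrays), given as lowest, median and highest. The 11 nitrogen arrays lay above all 12 rhizobium arrays and all 11 standard arrays. The late differences were 5.44 ± 0.67 (adjusted p = 2.47e-10) against rhizobium and 2.82 ± 0.69 (adjusted p = 0.00131) against standard. The last of these fell short of the threshold (2.51, adjusted p = 0.077) without the arrays numbered replicate 1.

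At 48 h the cortex arrays read 13.40, 13.22 and 13.44 with nitrogen, 4.74, 5.26 and 5.35 with rhizobium and 7.50, 8.47 and 8.05 on standard medium. The pericycle arrays of that hour read 12.72, 13.41 and 13.02 with nitrogen, 5.73, 10.76 and 7.62 with rhizobium and 6.92, 5.18 and 6.16 on standard medium. In both cell types the 3 nitrogen arrays were above all others of that hour, and the lowest array of the whole table for this gene, 4.74, was a rhizobium cortex array. The deposited values of all loci begin at 3.69, so the 48 h rhizobium cortex readings of HHO1 were near the bottom of the scale.

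Contrasts chosen after seeing these courses put the growth of the difference to a test. The growth of the excess over standard in cortex is not given here. Between 1 to 6 h and 20 to 48 h, the excess of nitrogen over rhizobium in HHO1 grew by 5.22 ± 0.99 (adjusted p = 0.000444) in cortex and by 4.35 ± 0.89 (adjusted p = 0.00188) in pericycle, and the excess over standard in pericycle by 4.55 ± 0.92 (adjusted p = 0.00234). Within the rhizobium arrays, late minus early HHO1 was -4.61 ± 0.67 (adjusted p = 2.74e-07) in cortex and -3.29 ± 0.63 (adjusted p = 0.000298) in pericycle. Within the standard pericycle arrays the same change was -3.49 ± 0.67 (adjusted p = 0.00207), and within the nitrogen arrays it was 0.60 ± 0.73 (adjusted p = 0.626) in cortex and 1.06 ± 0.63 (adjusted p = 0.331) in pericycle. Of the changes with time named here that passed the threshold, all but the one within the rhizobium cortex arrays missed it when 1 replicate number was left out (adjusted p from 0.057 to 0.14). The low-nitrate arrays of HHO1 in pericycle, and the rhizobium arrays in cortex, thus fell with time, and no fall passed the test on the standard cortex arrays (-1.82 ± 0.67, adjusted p = 0.132) or on nitrogen arrays.

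**Figure D1:**
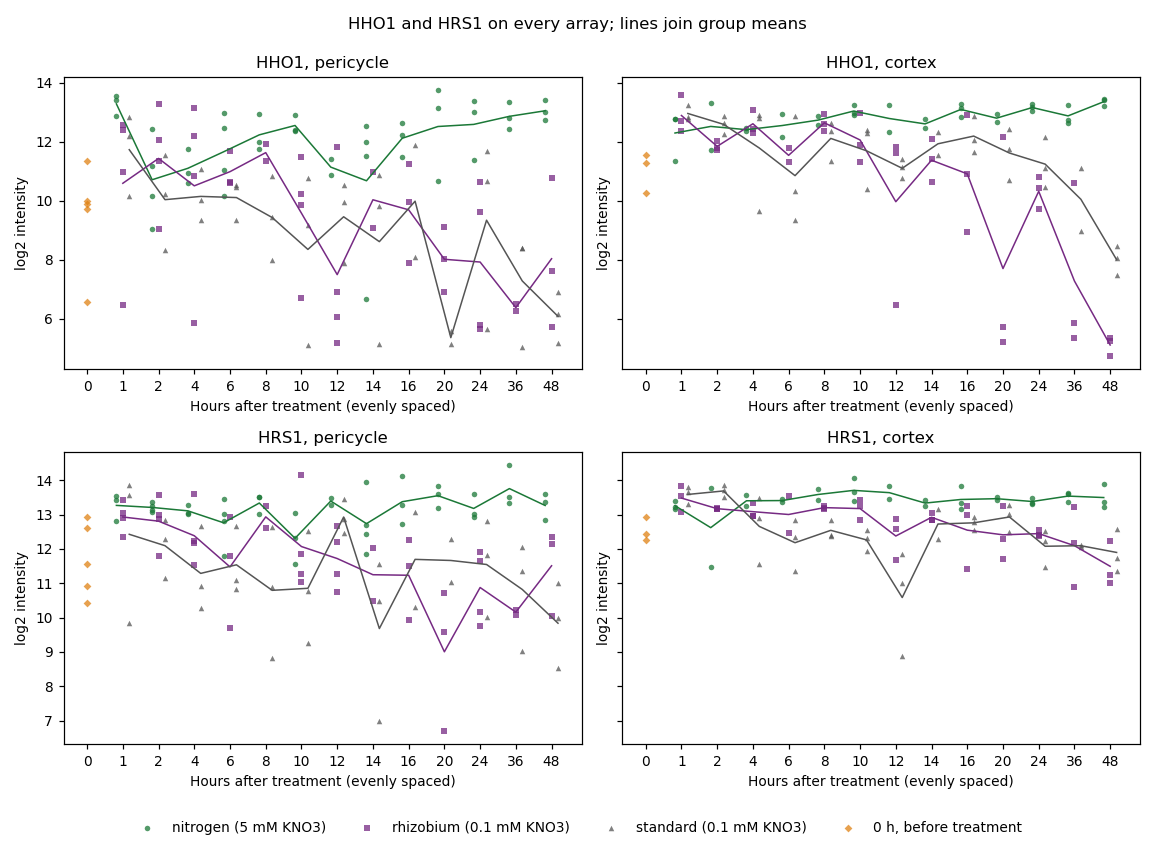
HHO1 (top) and HRS1 (bottom) in pericycle (left) and cortex (right). Each point is the log2 intensity of 1 array, lines join the group means of each treatment, orange points are the 0 h arrays, and hours are evenly spaced rather than to scale. At 48 h HHO1 reads 13.40, 13.22 and 13.44 with nitrogen in cortex, against 4.74, 5.26 and 5.35 with rhizobium.

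HRS1, the member after which the family is named, also rose, by less than HHO1. In pericycle its mean was 13.17 with nitrogen, against 11.32 on standard medium, a rise of 1.85 ± 0.21 (adjusted p = 2.46e-12) with all 13 hours in the same direction. In cortex it rose by 0.95 ± 0.22 (adjusted p = 0.000334), with 11 of 13 hours. Against rhizobium, HRS1 was higher with nitrogen by 1.61 ± 0.21 (adjusted p = 1.03e-09) in pericycle and by 0.68 ± 0.22 (adjusted p = 0.0235) in cortex. The cortex value missed the threshold without 12, 36 or 48 h (0.63, 0.62 and 0.57, with adjusted p = 0.052, 0.060 and 0.088) and without replicate 1, 2 or 3 (0.62, 0.77 and 0.66, with adjusted p = 0.17, 0.095 and 0.12). Cortex markers moved with it: 3 of 5 were higher with nitrogen than with rhizobium in cortex, beside 7.21% of all loci. Over the 40 cortex group means HRS1 correlated with the mean of these markers at 0.61, a description of points that share arrays and hours. Their part in the result was not tested. None of the 9 heat shock genes was called between nitrogen and rhizobium in either cell type. Of all loci, 7.21% were called higher and 7.60% lower in cortex, and 6.24% and 7.92% in pericycle.

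The pericycle arrays of HRS1 separated completely at late hours. At 20 to 48 h the lowest, median and highest values were 12.83, 13.44 and 14.44 with nitrogen (12 arrays), 6.69, 10.20 and 12.34 with rhizobium (12 arrays) and 8.54, 11.04 and 12.82 on standard medium (11 arrays). All 12 nitrogen arrays exceeded every rhizobium and every standard array. The excess over standard was 1.25 ± 0.36 (adjusted p = 0.0220) at 1 to 6 h, 1.84 ± 0.35 (adjusted p = 0.000100) at 8 to 16 h and 2.47 ± 0.39 (adjusted p = 7.48e-07) at 20 to 48 h, of which the late value alone stayed past the threshold without each replicate number in turn. Its late excess over rhizobium was 3.05 ± 0.38 (adjusted p = 8.27e-10), larger than the early one by 2.36 ± 0.51 (adjusted p = 0.00326), a contrast chosen after seeing the data. The last value had an adjusted p of 0.14 without replicate 1 and 0.065 without replicate 2.

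The HRS1 groups overlapped in cortex. The late arrays were at 13.23, 13.42 and 13.90 with nitrogen (11 arrays), 10.88, 12.26 and 13.26 with rhizobium (12 arrays) and 11.37, 12.24 and 13.28 on standard medium (11 arrays), again lowest, median and highest. Of the 11 nitrogen arrays, 10 lay above every rhizobium array and 10 above every standard array. The differences at those hours were 1.36 ± 0.39 (adjusted p = 0.0135) against rhizobium and 1.22 ± 0.40 (adjusted p = 0.0223) against standard, and both missed the threshold without replicate 1, 2 or 3 (adjusted p from 0.095 to 0.14). With nitrogen, HRS1 spanned 13.23 to 13.90 in late cortex, a range of less than 1 log2 unit.

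HHO3, another repressor of nitrate transporter genes, rose by less than HHO1, with a smaller standard error. With nitrogen it was higher than on standard medium by 0.56 ± 0.11 (adjusted p = 4.04e-05) in pericycle and 0.43 ± 0.12 (adjusted p = 0.00166) in cortex, with 12 of 13 hours in the same direction in each. Without replicate 1 the cortex value had an adjusted p of 0.079. Against rhizobium in cortex it was higher by 0.99 ± 0.12 (adjusted p = 8.39e-12), at all 13 hours, and in pericycle by 0.56 ± 0.11 (adjusted p = 4.91e-05), at 9 of 13 hours (0.41, adjusted p = 0.055 without replicate 1). At 20 to 48 h the cortex arrays were at 12.38, 12.81 and 13.20 with nitrogen (11 arrays), 10.16, 11.65 and 12.35 with rhizobium (12 arrays) and 11.77, 12.36 and 13.10 on standard medium (11 arrays), and every nitrogen array lay above every rhizobium array. That late difference was 1.17 ± 0.20 (adjusted p = 6.28e-06), or 2.26-fold.

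HHO2, reported to take part in phosphate homeostasis and lateral root growth, was called between nitrogen and rhizobium and not between nitrogen and standard medium. It was higher with nitrogen than with rhizobium by 0.65 ± 0.15 (adjusted p = 0.000736) in cortex and 0.45 ± 0.14 (adjusted p = 0.0188) in pericycle, at 12 of 13 hours in each. The cortex value missed the threshold without replicate 1 (0.50, adjusted p = 0.14), and the pericycle value without replicate 1 or 3 (0.43 and 0.44, with adjusted p = 0.14 and 0.13) or without 8 h (0.36, adjusted p = 0.075). In late cortex the arrays were at 12.93, 13.31 and 13.64 with nitrogen (11 arrays), 9.48, 12.54 and 13.13 with rhizobium (12 arrays) and 12.71, 13.07 and 13.50 on standard medium (11 arrays). Of the 11 nitrogen arrays, 8 lay above every rhizobium array and 3 above every standard array. Against standard, the differences of HHO2 were 0.31 ± 0.15 (adjusted p = 0.102) in cortex and 0.18 ± 0.14 (adjusted p = 0.402) in pericycle. The cortex value passed the threshold when arrays were weighted (0.32, adjusted p = 0.014), when they were centred on their medians (0.40, adjusted p = 0.028), or without 2 h or replicate 2 (0.39 and 0.50, with adjusted p = 0.044 and 0.0023). The replicate 2 nitrogen array of 2 h read 9.79 beside 13.68 on the other.

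**Figure D2:**
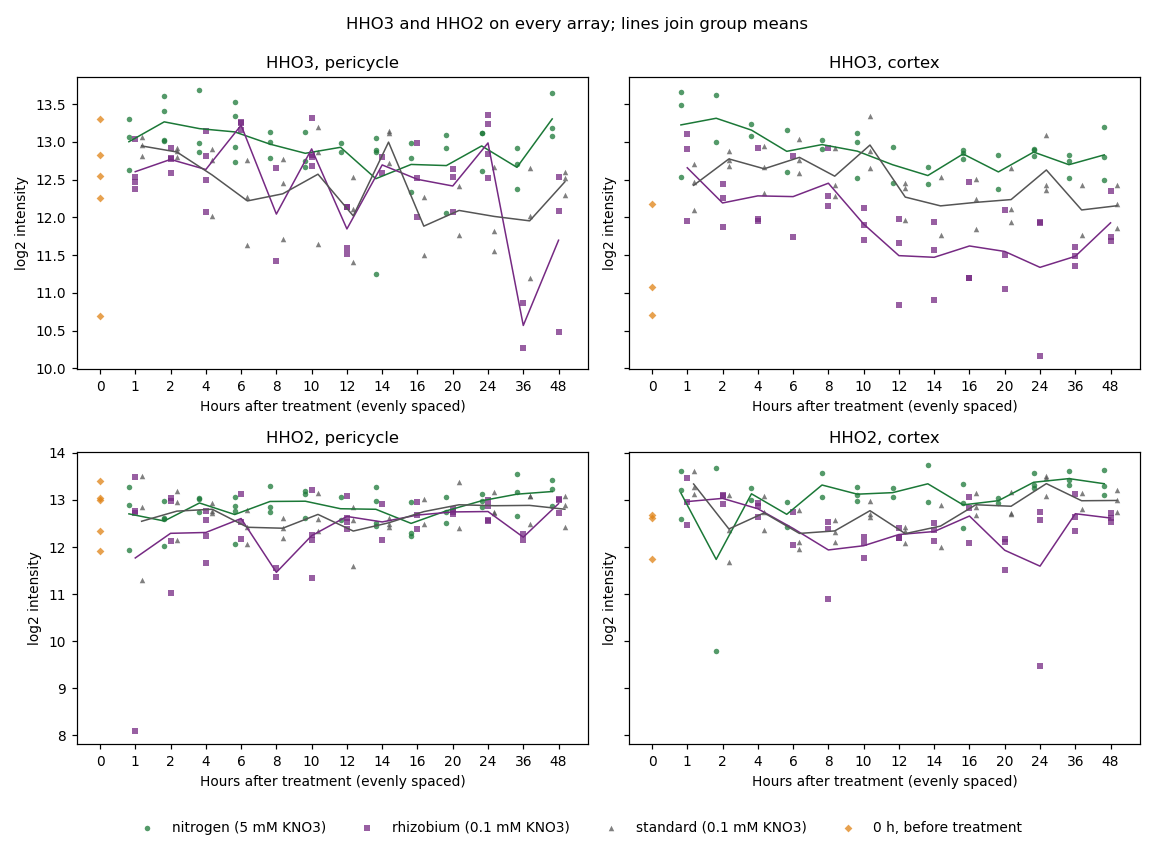
HHO3 (top) and HHO2 (bottom) in pericycle (left) and cortex (right), drawn as points for single arrays (log2 intensity) with lines through group means and hours evenly spaced. In cortex at 20 to 48 h, HHO3 has a median of 12.81 with nitrogen, against 11.65 with rhizobium and 12.36 on standard medium.

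In cortex HHO5 was higher with nitrogen than on standard medium by 1.44 ± 0.23 (adjusted p = 6.26e-08) and than with rhizobium by 1.18 ± 0.23 (adjusted p = 2.36e-05), at all 13 hours in both. The lowest, median and highest cortex arrays over 1 to 48 h were at 7.89, 11.07 and 12.56 with nitrogen (32 arrays), 6.91, 9.97 and 11.69 with rhizobium (38 arrays) and 7.42, 9.62 and 11.57 on standard medium (37 arrays), so the groups overlapped although their medians differed. In pericycle HHO5 was higher than on standard medium both with nitrogen, by 0.68 ± 0.21 (adjusted p = 0.0135), and with rhizobium, by 0.73 ± 0.21 (adjusted p = 0.00802), while nitrogen and rhizobium differed by -0.04 ± 0.21 (adjusted p = 0.920). The 2 pericycle calls were lost with the epidermis and root hair marker mean as a covariate, an alternative chosen after seeing the data (0.57, adjusted p = 0.066 for nitrogen, and 0.60, adjusted p = 0.053 for rhizobium), and without replicate 3 (0.51, adjusted p = 0.16, and 0.48, adjusted p = 0.22, in the same order). The nitrogen value also missed the threshold without replicate 1 (0.76, adjusted p = 0.051). The 2 deposited rows of HHO5 correlated at 0.83 over the 235 arrays of the fit.

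EFM was close to the floor of the arrays on most samples. Its median over all arrays was 5.22, and 11.9% of loci had a lower mean. In pericycle EFM fell by 0.54 ± 0.17 (adjusted p = 0.0156) with nitrogen against standard, where the lowest, median and highest arrays were at 4.68, 5.33 and 8.64 with nitrogen (41 arrays) and 4.94, 5.67 and 8.45 on standard medium (37 arrays). The groups overlapped along their whole range, and the highest nitrogen array exceeded the highest standard array. The call was lost with the epidermis and root hair marker mean as a covariate (-0.46, adjusted p = 0.070), with pericycle arrays fitted alone (-0.54, adjusted p = 0.081) and without replicate 1 or 2 (-0.59 and -0.34, with adjusted p = 0.099 and 0.17). Whether EFM lay above background was not examined, because only processed values were used.

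HHO6 was not called between nitrogen and standard medium by limma, where its differences were -0.01 ± 0.26 (adjusted p = 0.988) in pericycle and 0.18 ± 0.28 (adjusted p = 0.656) in cortex, nor between nitrogen and rhizobium, where they were 0.14 ± 0.26 (adjusted p = 0.774) and -0.66 ± 0.28 (adjusted p = 0.0920) in the same order. Its arrays covered a wide range in every treatment, from 5.30 to 12.49 over all groups.

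Counted together, 5 of the 7 genes were called between nitrogen and standard in pericycle, 4 higher and 1 lower, beside 8.52% of all loci called higher and 11.1% called lower. In cortex 4 were higher and none lower, beside 20.9% and 14.8% of all loci. Between nitrogen and rhizobium, 4 were higher with nitrogen in pericycle, beside 6.24% of loci, and 5 in cortex, beside 7.21%, with none lower in either cell type, beside 7.92% and 7.60% of loci. The median difference over the 7 genes was 0.56 in pericycle and 0.43 in cortex for nitrogen against standard, beside 0.04 and 0.08 over all loci. Heat shock RNA moved with the cortex comparison: with each array's heat shock mean as a covariate, HHO5 stayed past the threshold in cortex while HRS1 (0.47, adjusted p = 0.35), HHO1 (0.77, adjusted p = 0.39) and HHO3 (0.41, adjusted p = 0.092) did not. The differences from rhizobium in cortex do not use the standard arrays. A moderated F test for a difference at any of the 13 hours called HRS1, HHO1 and HHO3 in pericycle both against rhizobium and against standard, beside 10.1% and 10.4% of loci. In cortex it called HHO1, HHO2, HHO3 and HHO5 against rhizobium, beside 8.09%, and HRS1 and HHO5 against standard, beside 16.6%. Several of these F test calls were lost without 1 replicate number. In pericycle HHO3 was lost against standard without replicate 1, 2 or 3 (adjusted p = 0.13, 0.15 and 0.14) and against rhizobium without replicate 1 or 2 (adjusted p = 0.13 and 0.051). In cortex HRS1 was lost against standard without replicate 1, 2 or 3 (adjusted p = 0.13, 0.32 and 0.44), HHO2 against rhizobium without replicate 3 (adjusted p = 0.21), and HHO5 without replicate 2 against both (adjusted p = 1 against rhizobium and 0.45 against standard).

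**Figure D3:**
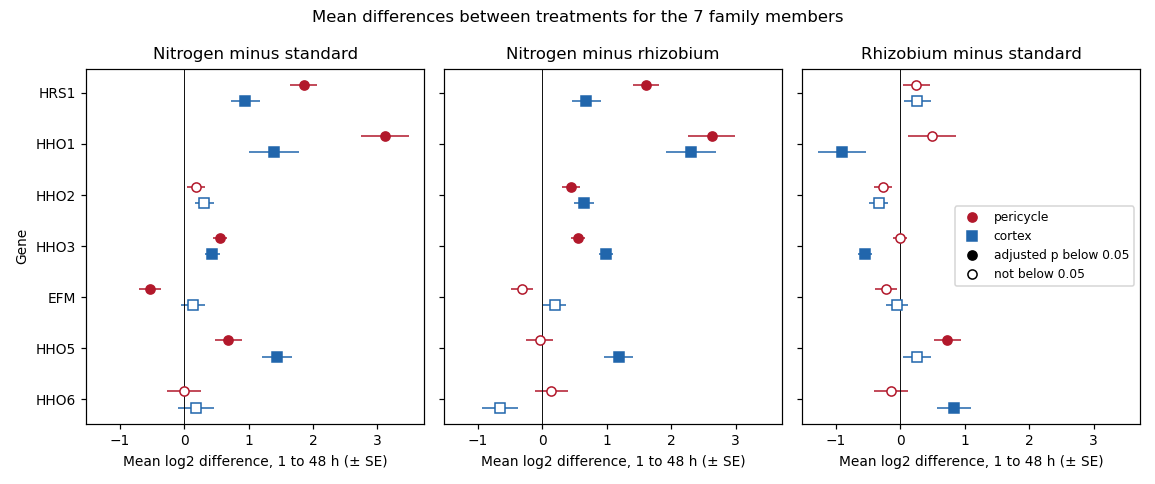
Mean difference in log2 intensity over 1 to 48 h (horizontal axis, bars ± SE) for the 7 genes in pericycle (red circles) and cortex (blue squares), for nitrogen minus standard, nitrogen minus rhizobium and rhizobium minus standard. Filled symbols passed the adjusted p threshold of 0.05, and the 4 genes HRS1, HHO1, HHO2 and HHO3 are filled in both cell types for nitrogen minus rhizobium.

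Between rhizobium and standard medium, 3 of the genes were called in cortex and 1 in pericycle by the mean difference over 1 to 48 h. In cortex HHO3 fell by 0.56 ± 0.11 (adjusted p = 1.61e-05) and HHO1 fell by 0.91 ± 0.37 (adjusted p = 0.0424) against standard, and HHO6 rose by 0.84 ± 0.26 (adjusted p = 0.00739). This made 2 genes lower and 1 higher, beside 16.0% and 21.8% of loci. HHO3 had medians of 11.93 with rhizobium (38 arrays) and 12.46 on standard medium (37 arrays), and 16 rhizobium arrays lay below the lowest standard array. HHO2 differed by -0.34 ± 0.14 (adjusted p = 0.0544), short of the threshold in this fit and past it in several other settings, such as cortex arrays fitted alone (adjusted p = 0.033) and quantile normalization (adjusted p = 0.030). In pericycle HHO5 was the only gene of the 7 called by the mean difference over 1 to 48 h, beside 21.9% of loci called in either direction. The moderated F test for a difference at any of the 13 hours called HRS1 (adjusted p = 0.014) and HHO3 (adjusted p = 0.026) in pericycle, beside 14.9% of loci, and HHO3 in cortex (adjusted p = 0.010), beside 13.5%. The HRS1 call was lost without replicate 2 (adjusted p = 0.49), and the HHO3 calls without replicate 1, 2 or 3 in pericycle (adjusted p = 0.092, 0.11 and 0.31) and without replicate 1 or 2 or with arrays centred on their medians in cortex (adjusted p = 0.39, 0.22 and 0.075).

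At 20 to 48 h in cortex, HHO1, HHO2 and HHO3 were all lower with rhizobium than on standard medium. HHO1 fell by 2.62 ± 0.67 (adjusted p = 0.00334), HHO2 fell by 0.83 ± 0.26 (adjusted p = 0.0194) and HHO3 fell by 0.70 ± 0.20 (adjusted p = 0.00867), so that 3 of 7 were lower beside 5.99% of loci. Of the 12 late rhizobium arrays, 7 lay below the lowest standard array for HHO1, 9 for HHO2 and 8 for HHO3. Without replicate 2 the 3 late values were -2.20, -0.50 and -0.43 (adjusted p = 0.17, 0.21 and 0.38). Those of HHO2 and HHO3 also missed the threshold without replicate 1 (-1.07 and -0.77, with adjusted p = 0.060 and 0.073), and that of HHO2 without replicate 3 (-0.93, adjusted p = 0.084). The mean fall of HHO1 over all hours missed the threshold without 12, 16, 20, 24, 36 or 48 h (-0.89, -0.88, -0.66, -0.91, -0.76 and -0.75, with adjusted p from 0.056 to 0.18) or without replicate 1, 2 or 3 (-1.15, -0.84 and -0.76, with adjusted p = 0.064, 0.21 and 0.22) or with arrays centred on their medians (-0.85, adjusted p = 0.056), and the rise of HHO6 missed it without replicate 1 or 2 (0.81 and 0.83, with adjusted p = 0.060 and 0.089). With the heat shock mean as a covariate, the rhizobium differences in cortex were -1.60 for HHO1 (adjusted p = 0.057) and 0.90 for HHO6 (adjusted p = 0.14), and the fall of HHO3 stayed past the threshold.

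Between the cell types, genes of the family were called on both low-nitrate media. On standard medium the difference of pericycle from cortex was -2.41 ± 0.36 (adjusted p = 7.38e-09) for HHO1 and -1.12 ± 0.21 (adjusted p = 2.39e-06) for HRS1, both lower in pericycle, while EFM was higher by 0.90 ± 0.17 (adjusted p = 2.89e-06) and HHO5 by 1.01 ± 0.21 (adjusted p = 2.79e-05). With rhizobium, HRS1 (-1.16), HHO1 (-1.07) and HHO6 (-1.28) were lower in pericycle and HHO3 (0.48), EFM (0.74) and HHO5 (1.41) were higher, with adjusted p of 1.56e-06, 0.00969, 1.50e-05, 0.000101, 0.000124 and 1.32e-08 in that order. With nitrogen none of the 7 was called by limma, and the values of HRS1 and HHO1 were -0.23 ± 0.22 (adjusted p = 0.490) and -0.75 ± 0.38 (adjusted p = 0.153). On standard medium 2 genes were thus higher and 2 lower, beside 20.8% and 18.4% of all loci. With rhizobium 3 were higher and 3 lower, beside 27.0% and 26.2%. The 0 of 7 with nitrogen stand beside 23.3% of loci called in either direction. None of the 7 was past an unadjusted p of 0.05 either, a cut for which the share of all loci is not given here. With the heat shock mean as a covariate, the standard-medium difference of HHO5 was 0.69 (adjusted p = 0.090). Markers of endodermis and of epidermis moved with cell type in every treatment. With the endodermis marker mean as a covariate, HHO1 no longer differed past the threshold between cell types with rhizobium (-0.34, adjusted p = 0.54), an alternative chosen after seeing the data, nor did it without replicate 2 or 3 (-1.09 and -0.77, with adjusted p = 0.058 and 0.16).

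The difference in response between cell types was tested directly. The nitrogen response against standard was larger in pericycle than in cortex for HHO1, by 1.73 ± 0.54 (adjusted p = 0.0114), and for HRS1, by 0.91 ± 0.31 (adjusted p = 0.0218). For EFM the difference of the responses was -0.68 ± 0.25 (adjusted p = 0.0379), which makes 2 genes higher and 1 lower beside 9.97% and 12.8% of loci. Without 20 h the HHO1 value was 1.37 (adjusted p = 0.064), and without 14 h or 2 h the HRS1 value was 0.78 or 0.80 (adjusted p = 0.066 and 0.060). The EFM value missed the threshold without any of 2, 6, 10, 12, 14 or 20 h (-0.60 to -0.65, adjusted p from 0.062 to 0.082). Leaving out replicate 1 or 2 took HHO1 to 1.28 and 1.52 (adjusted p = 0.24 and 0.14) and HRS1 to 0.52 and 0.69 (adjusted p = 0.42 and 0.24), and without replicate 1, 2 or 3 EFM was at -0.92, -0.33 and -0.87 (adjusted p = 0.060, 0.42 and 0.059). These responses use the standard cortex arrays with their high heat shock RNA. Taken against rhizobium instead, HHO5 differed between cell types by -1.23 ± 0.31 (adjusted p = 0.0155), beside 2.38% of loci called lower and 1.14% called higher, whereas the values were 0.32 ± 0.53 (adjusted p = 0.769) for HHO1 and 0.93 ± 0.30 (adjusted p = 0.0596) for HRS1. The HHO5 value missed the threshold without replicate 2 or 3 (-0.98 and -1.30, with adjusted p = 0.37 and 0.080).

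The rhizobium response differed between cell types for HHO3 (0.55 ± 0.16, adjusted p = 0.00308), HHO1 (1.40 ± 0.52, adjusted p = 0.0290) and HHO6 (-0.98 ± 0.37, adjusted p = 0.0312), 2 genes higher and 1 lower beside 16.3% and 17.1% of loci. The HHO1 value missed the threshold without 2, 20 or 48 h (1.34, 0.97 and 1.12, with adjusted p = 0.051, 0.16 and 0.11), and so did the HHO6 value without any of 1, 2, 4, 10 or 24 h (-0.81 to -0.91, adjusted p from 0.065 to 0.10). The HHO3 value stayed past the threshold whichever of the 13 hours was left out, but not without replicate 2 (0.44, adjusted p = 0.071). The HHO1 value was 0.88 and 1.31 without replicate 1 or 2 (adjusted p = 0.34 and 0.15), and the HHO6 value was -1.21 and -0.46 without replicate 2 or 3 (adjusted p = 0.077 and 0.51). With the heat shock mean as a covariate the HHO6 value was -1.04 (adjusted p = 0.11). At 20 to 48 h the rhizobium response of HHO1 was higher in pericycle than in cortex by 3.19 ± 0.96 (adjusted p = 0.0353). The standard arrays of those hours had a median of 6.16 in pericycle and 10.70 in cortex, and the values of all loci begin at 3.69. A fall thus had less room in pericycle, and the part of this in the difference was not tested.

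**Figure D4:**
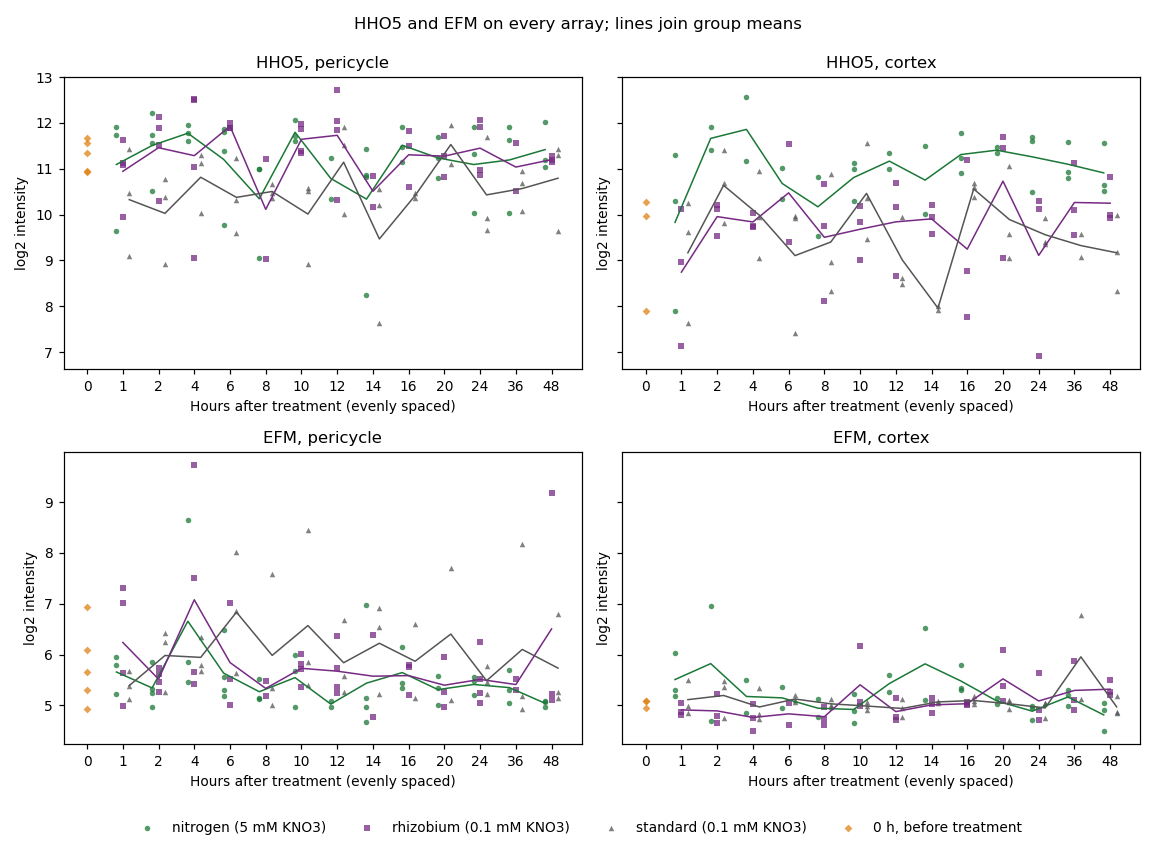
HHO5 (top) and EFM (bottom) in pericycle (left) and cortex (right), with 1 point per array (log2 intensity), lines through group means and hours evenly spaced. EFM reads between 4.50 and 6.96 on nitrogen cortex arrays and up to 9.72 on a rhizobium pericycle array, and HHO5 has medians of 11.07 with nitrogen and 9.62 on standard medium in cortex.

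HHO6 fell and HHO3 rose in cortex right after the move to fresh medium, with nitrogen and on standard medium. HHO6 read 11.20, 11.79 and 10.97 on the 0 h cortex arrays. At 1 h it read 7.59, 6.26 and 8.56 with nitrogen, 10.63, 8.61 and 8.95 with rhizobium and 5.51, 9.87 and 8.75 on standard medium, all below the 3 arrays taken at 0 h. Over 1 and 2 h the difference of HHO6 from 0 h was -3.30 ± 0.83 (adjusted p = 0.0112) with nitrogen, -1.81 ± 0.80 (adjusted p = 0.396) with rhizobium and -3.14 ± 0.80 (adjusted p = 0.0220) on standard medium. HHO3 read 10.71, 12.18 and 11.07 at 0 h and 13.66, 12.53 and 13.49 at 1 h with nitrogen. The difference of HHO3 at 1 and 2 h was 1.95 ± 0.35 (adjusted p = 0.000102) with nitrogen, 1.10 ± 0.34 (adjusted p = 0.0870) with rhizobium and 1.28 ± 0.34 (adjusted p = 0.0290) on standard medium. These 2 genes were the members called with nitrogen and on standard medium, beside 3.42% and 0.962% of loci.

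HHO6 then climbed again in several sets of arrays. At 8 to 16 h it was above its 1 and 2 h level in cortex by 3.14 ± 0.62 (adjusted p = 0.000150) with nitrogen and 2.42 ± 0.56 (adjusted p = 0.00152) on standard medium, contrasts chosen after seeing the data. In pericycle the same contrast gave 2.25 ± 0.53 (adjusted p = 0.00135) with nitrogen and 2.47 ± 0.51 (adjusted p = 0.000689) with rhizobium. All but the last of these 4 missed the threshold without 1 replicate number (adjusted p from 0.055 to 0.34). The contrast is not given here for rhizobium arrays in cortex or standard arrays in pericycle. In pericycle the 0 h arrays themselves ranged from 5.84 to 10.20. No member was called there between 1 and 2 h and 0 h by limma in any of the 3 treatments. Past an unadjusted p of 0.05 were 3 members with nitrogen, 2 with rhizobium and 2 on standard medium. The shares of all loci past either threshold in these pericycle contrasts are not given here, so the counts cannot be set against them. All 3 treatments included the move to fresh medium and the passing of time, so transfer and time of day cannot be told apart from these contrasts. Heat shock genes averaged 10.17 with nitrogen and 13.92 on standard medium in cortex over 1 to 48 h, against 12.67 ± 2.03 at 0 h (SD, n = 3), and their part in these contrasts was not tested. The 0 h cortex group holds 3 arrays, and each of the 4 calls at 1 and 2 h was lost without at least 1 replicate number (adjusted p from 0.060 to 0.72). A contrast of 12 h, in the light, with 24 and 48 h called HRS1 in standard pericycle (2.24 ± 0.65, adjusted p = 0.0197), the 1 member called there beside 6.06% of loci, and that call was lost without replicate 1, 2 or 3 (adjusted p from 0.059 to 0.46). The same contrast called no member in any other set of treatment and cell type. For HRS1 it gave -1.40 in standard cortex, 0.20 and 0.41 in cortex with nitrogen and rhizobium, and 0.17 and 0.53 in pericycle with nitrogen and rhizobium.

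**Figure D5:**
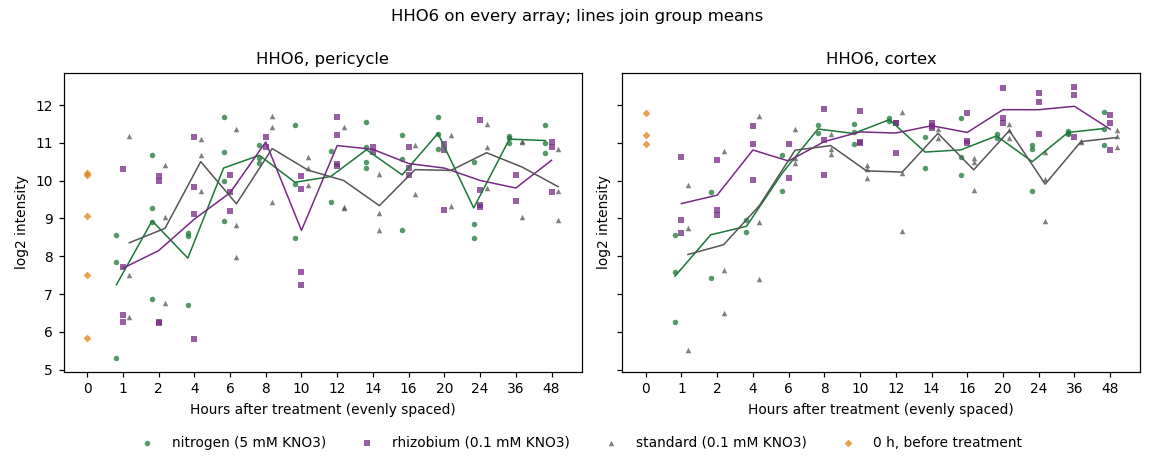
HHO6 in pericycle (left) and cortex (right), with 1 point per array (log2 intensity), lines through group means and hours evenly spaced. In cortex the 0 h arrays read 11.20, 11.79 and 10.97, the 1 h arrays of every treatment lie below them, and from 8 h to 10 h every array reads above 10.

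The genes around the family in the nitrate pathway were read from lists of known members. Of the 4 transport genes reported as targets, 3 were lower with nitrogen than with rhizobium in pericycle, beside 7.92% of all loci. The differences were -2.05 ± 0.34 (adjusted p = 2.74e-06) for NRT3.1, the partner protein of NRT2 carriers, -1.73 ± 0.38 (adjusted p = 0.000555) for NRT2.4, a carrier used under nitrogen starvation, and -0.79 ± 0.17 (adjusted p = 0.000387) for NRT2.5, another starvation carrier. NRT2.1, the main inducible carrier, differed there by -0.56 ± 0.24 (adjusted p = 0.103). In cortex only NRT3.1 of the 4 was called (-1.80 ± 0.37, adjusted p = 0.000110), beside 7.60% of all loci called lower. Among the 3 SPX genes reported as targets, SPX2 was higher with nitrogen than with rhizobium in pericycle, by 0.68 ± 0.17 (adjusted p = 0.00303), beside 6.24% of all loci. None of the 3 was called in cortex. Against standard, NRT2.1 was higher in cortex with nitrogen by 1.20 ± 0.26 (adjusted p = 7.39e-05) and SPX1 by 1.55 ± 0.38 (adjusted p = 0.000424). With rhizobium they were higher by 1.12 ± 0.25 (adjusted p = 0.000100) and 1.89 ± 0.36 (adjusted p = 4.91e-06). Beside them stand 20.9% of all loci called higher with nitrogen and 21.8% with rhizobium. Both comparisons share the standard cortex arrays with their high heat shock RNA. The other reported targets are not given here for these comparisons.

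Of the 9 upstream regulators, NLP8 was lower with nitrogen in all 4 comparisons, with differences from rhizobium of -2.34 ± 0.24 (adjusted p = 1.24e-14) in cortex and -1.45 ± 0.22 (adjusted p = 2.94e-07) in pericycle. NLP7, the best known nitrate sensor among them, differed by -0.28 ± 0.13 (adjusted p = 0.130) and -0.25 ± 0.12 (adjusted p = 0.148) in the same order, and NLP6 was lower in cortex with a difference of -0.66 ± 0.18 (adjusted p = 0.00448). Of all loci, 7.60% in cortex and 7.92% in pericycle were called lower against rhizobium, and 14.8% and 11.1% against standard. The cortex comparison with standard uses the arrays with high heat shock RNA. The values of the other upstream regulators, and how many of the 9 were called, are not given here. Nitrate assimilation genes mark nitrate supply. They were higher with nitrogen than with rhizobium for 7 of 8 in cortex and 6 of 8 in pericycle, beside 7.21% and 6.24% of all loci. NIR1, nitrite reductase, was at 0.69 ± 0.11 (adjusted p = 3.55e-07) and 0.55 ± 0.10 (adjusted p = 2.35e-05). Of 6 nitrogen starvation genes, 5 were lower in each cell type, beside 7.60% of all loci in cortex and 7.92% in pericycle. DUR3, a urea carrier, was at -1.53 ± 0.39 (adjusted p = 0.00241) in cortex and -2.92 ± 0.36 (adjusted p = 2.75e-10) in pericycle. Of 9 other nitrate-responsive regulators, 5 were higher in each cell type, beside the same 7.21% and 6.24% of loci. LBD39 was the most raised among them in cortex (1.95 ± 0.20, adjusted p = 2.06e-14). Among 14 other GARP genes, those higher with nitrogen were GLK1 and GLK2 in cortex (0.66 ± 0.23, adjusted p = 0.0364, and 1.12 ± 0.40, adjusted p = 0.0402) and KAN1 in pericycle (0.88 ± 0.26, adjusted p = 0.0133), and none was lower. The same shares of loci stand beside these GARP counts. None of 8 clock genes was called between nitrogen and rhizobium in either cell type. Beside this stand 7.21% of all loci called higher and 7.60% lower in cortex, and 6.24% and 7.92% in pericycle. Against standard medium in cortex 3 of the clock genes were lower with nitrogen, beside 14.8% of all loci. That comparison uses the standard cortex arrays with their high heat shock RNA. For the genes of these lists, values without each replicate number are not given here.

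Likeness between the members was described across the 80 group means. Pearson's r between HRS1 and HHO1 was 0.78, the highest of the 21 pairs, and HHO1 with HHO3 came next at 0.50. The lowest were HHO3 with HHO6 (-0.46) and HHO1 with EFM (-0.43). HHO2, HHO5 and HHO6 had r between -0.10 and 0.22 with HRS1 and with HHO1. The group means share arrays, treatments and hours, so these values describe likeness only.

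By the same measure, the 3 loci most like HRS1 were AT1G64190 (0.79), HHO1 (0.78) and DIN10 (0.77), and those most like HHO1 were HRS1, AT5G22920 (0.75) and DIN10 (0.75). HHO3 was most like AT5G62720 (0.74), GSTF9 (0.71) and HB1 (0.69), and HHO6 most like AT3G24450 (0.80), AT5G19190 (0.77) and AT5G54030 (0.77). EFM was most like MYB305 (0.74), FMO (0.74) and CYP71A27 (0.73). HHO5 was most like AT4G39675 (0.69), AT5G26010 (0.66) and AT3G44590 (0.64). For HHO2 no locus exceeded 0.52, the value of AT3G19000, followed by AT5G26700 (0.52) and AT4G17950 (0.51).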

How the data were processed

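Root cells sorted from Arabidopsis protoplasts were measured on 236 NimbleGen arrays. The deposited table holds log2 intensity values of 31524 rows, made by the authors with RMA per the submitters' processing notes. Which software ran it is not given in the sources used here. These values were used without further scaling. The number of arrays limits the precision.

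Rows were averaged per locus (27143 loci), and symbols came from RefSeq's gene table (TAIR10.1); the names HHO1 to HHO6 came from the list that defined the family. Replicates 2 and 3 of standard pericycle at 16 h correlated at 0.999, were nearly identical and were averaged into 1 sample, leaving 235 arrays. In R 4.3.3, limma 3.58.1 (tables were read by data.table, version 1.17.8) fitted 1 mean per group to all arrays, and differences were equally weighted means of same-hour contrasts over 13 hours or over windows of 1 to 6, 8 to 16 and 20 to 48 h, with Benjamini-Hochberg adjustment over all loci within each contrast. The comparison of cell types on standard medium also included 0 h. Moderated F tests over the 13 hours were run as well. The procedure was tested on simulated data.

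Lists covered upstream regulators, reported targets, starvation, assimilation, other regulators, other GARP, clock and heat shock genes, and markers of cortex, pericycle and stele, endodermis, epidermis and root hair, root cap, phloem and xylem. Genes of the lists were named where called, all reported targets and upstream regulators could be named, and for each member the 3 loci of highest correlation were named. Members and lists were chosen with earlier results of these data known. Alternatives covered centring, quantile normalization, array weights, another eBayes setting, a filter on low loci, single rows, unaveraged arrays, 1 cell type at a time, covariates, a replicate block, and each replicate number or hour left out. Samples with the same replicate number deviated together little (mean correlation of residuals from -0.02 to 0.05), so the numbers were not taken as pairs. The highest mean was that of nitrogen with rhizobium in pericycle, 0.05, against -0.02 for different numbers. There 10 of 36 pairs lay above 0.1, and 2 to 4 pairs did in each other comparison.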

Additional observations from a re-analysis of the deposited data

Results flagged for a closer look

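In 2 of 70 sets of 4 or 5 arrays of 1 gene, 1 array lay far from the others by Dixon's test, where chance gives about 1 in 20. HHO2 read 8.09 on replicate 2 of rhizobium pericycle at 1 h, against 12.73 on the nearest and 13.48 on the farthest of the other arrays. HHO3 read 11.25 on replicate 3 of nitrogen pericycle at 14 h, against 12.87 and 13.05 in the same order.

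The response differed between pericycle and cortex by a test of the difference itself in 7 cases, all in limma's fit. For nitrogen against standard the differences of the responses were 0.91 for HRS1, 1.73 for HHO1 and -0.68 for EFM. For nitrogen against rhizobium the difference was -1.23 for HHO5. For rhizobium against standard the differences were 1.40 for HHO1, 0.55 for HHO3 and -0.98 for HHO6. Each of these 7 missed the threshold without at least 1 replicate number.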

How the results depend on the processing

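None of the 84 mean differences of the 7 genes reversed a called direction under the 2562 alternatives run: 2445 kept their side of the threshold, 81 lost it and 36 gained it. With the heat shock mean as a covariate, 1 gene was called in cortex for nitrogen against standard (4 in the fit as reported) and 1 for rhizobium against standard (3 as reported). With the epidermis and root hair marker mean as a covariate, 3 were called for nitrogen against standard in pericycle (5) and 0 for rhizobium against standard in pericycle (1); this covariate and the endodermis mean were chosen after seeing the data. For nitrogen against rhizobium, pericycle minus cortex, array weights gave 2 and centring gave 2 (1 as reported). Leaving out each replicate number gave 2 to 5 genes for nitrogen against standard in cortex and 3 to 5 in pericycle, 3 to 5 for nitrogen against rhizobium in cortex and 2 to 4 in pericycle, 1 to 3 for rhizobium against standard in cortex and 0 to 2 in pericycle, 4 to 4 between cell types on standard medium, 0 to 1 with nitrogen and 5 to 6 with rhizobium, and 0 to 3, 0 to 1 and 0 to 3 for the cell type difference in the response to nitrogen against standard, nitrogen against rhizobium and rhizobium against standard. The cause of these changes was not tested.

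With the replicate block, 5 genes were called for nitrogen against standard in pericycle and 4 in cortex. It ended the calls of HHO1 between cell types with rhizobium (-1.03, adjusted p = 0.065) and of EFM in the cell type difference of the nitrogen response (-0.62, adjusted p = 0.056), and it made calls of HHO5 in that difference (-0.82, adjusted p = 0.044) and of HHO2 for rhizobium against standard in cortex (-0.34, adjusted p = 0.043). It changed no other call of a mean difference.

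Over all loci, calls moved by more than 1.5 times as follows. For nitrogen against rhizobium they were 7159 with array weights, 6316 with cortex fitted alone, and 1819 and 2141 without replicates 2 and 3, against 4020 as reported in cortex, and 2409 with pericycle fitted alone, and 1291 and 2093 without replicates 2 and 3, against 3844 in pericycle. For the cell type difference in that comparison they were 3755 with array weights and 2512, 93 and 28 without replicates 1, 2 and 3, against 954. For nitrogen against standard they were 4656 with the heat shock covariate, against 9687 in cortex, and 1759 and 3486 without replicates 1 and 3, against 5327 in pericycle, and for the cell type difference 3421 and 3507 without replicates 1 and 3, against 6175. For rhizobium against standard they were 4145 with the heat shock covariate, against 10264 in cortex, and 3762 without loci of low mean and 1205 without replicate 3, against 5936 in pericycle, and for the cell type difference 4753 without replicate 3, against 9060. Between cell types they were 2804 and 3134 with the endodermis and epidermis covariates and 3238 and 3923 without replicates 1 and 3, against 6331 with nitrogen, 9190 and 8005 with those covariates, against 14437 with rhizobium, and 6545 with the heat shock covariate and 5892 without replicate 1, against 10630 on standard medium. Centring moved the share of higher calls to 29.1% from 44.1% for nitrogen against rhizobium in pericycle, to 15.0% from 32.4% for its cell type difference, to 68.9% from 58.6% and to 55.1% from 43.4% for nitrogen against standard in cortex and in pericycle, to 62.4% from 50.7% between cell types with rhizobium, and to 81.5% from 59.6% for rhizobium against standard in pericycle. EFM lay under the filter on low loci and has no value there.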
